A study of Homo sapiens with 20 samples.

Results

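Accessible chromatin was described at 6 genes that encode subunits of the ATAC complex, a histone acetyltransferase complex whose name stands for Ada2a-containing and is unrelated to the sequencing assay of the same letters. The genes were YEATS2, ZZZ3, MBIP, KAT2A, TADA2A and DR1. Their members were all peaks that overlap a fixed window around each gene, in hg19 coordinates, in any of 7 peak lists. The windows held 191 of the 1407450 peaks in the lists. Merging overlapping peaks of all lists gave 50 sites in the windows, of 372133 sites in all.

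The peaks came from ATAC-seq, in which a transposase inserts adapters into open DNA, on 20 libraries of SW872, an established human liposarcoma cell line. Every line was a pooled, stable population made with a retroviral vector and selected with G418, and the 7 lines differed in the insert. They carried the empty vector (EV), TAZ4SA or YAP5SA (TAZ and YAP with serines changed to alanine), full-length CAMTA1 or TFE3 (the C-terminal partners), or a fusion, TAZ-CAMTA1 or YAP-TFE3. There were 2 libraries of TFE3 and 3 of each other vector. Replicate 3 of EV is titled a redo, and the YAP-TFE3 titles name YAP5SA as the part from YAP.

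A single peak list stands for each vector, so there was no replicate spread and no test, and every difference below is between 2 lists. The measure of a peak is its area, the area under the curve of the peak caller's statistic, which starts at 20 in the lists. A list without a peak at a site means that none passed the caller's limits, and not that the DNA was closed. Area sums over all cells, so a site open in fewer cells and a site less open in each cell cannot be told apart. Sequencing depth is not known for any list. The lists ranged from 152702 peaks for TAZ4SA to 236893 peaks for TAZ-CAMTA1, and the part of depth in any difference of area or of peak number was not tested.

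The ATAC complex transfers acetyl groups to histone H3, a mark of active promoters and enhancers. KAT2A (GCN5) is its catalytic acetyltransferase, and TADA2A (Ada2a) is the adaptor that holds KAT2A in the complex and gives the complex its name. YEATS2 is a scaffold whose YEATS domain reads acylated histone H3, ZZZ3 reads the H3 tail through its ZZ domain, MBIP is a further scaffold subunit first known as a binding partner of a MAP kinase kinase kinase, and DR1 is a histone-fold protein that also binds the TATA-binding protein as part of the repressor NC2. KAT2A is shared with the SAGA complex. Genes of the other subunits were not analysed here.

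The sequence just before the annotated start of 4 of the genes is shown because the strongest peak of most windows lay at that end of the gene. The sequences are the 250 bases upstream of the start in RefSeq (GRCh38.p14), read 5′ to 3′ on the strand of the gene, and were not placed on the hg19 peaks. Capitals mark GGAATG or its reverse complement CATTCC, the core bound by TEAD proteins, the DNA-binding partners of TAZ and YAP, and CGGAAG or its reverse complement CTTCCG, an ETS-type core.
MBIP: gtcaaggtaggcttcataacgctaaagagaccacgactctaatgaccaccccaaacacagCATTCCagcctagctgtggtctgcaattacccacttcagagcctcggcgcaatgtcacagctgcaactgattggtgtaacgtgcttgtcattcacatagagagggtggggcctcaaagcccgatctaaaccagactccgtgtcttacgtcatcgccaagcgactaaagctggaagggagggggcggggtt
DR1: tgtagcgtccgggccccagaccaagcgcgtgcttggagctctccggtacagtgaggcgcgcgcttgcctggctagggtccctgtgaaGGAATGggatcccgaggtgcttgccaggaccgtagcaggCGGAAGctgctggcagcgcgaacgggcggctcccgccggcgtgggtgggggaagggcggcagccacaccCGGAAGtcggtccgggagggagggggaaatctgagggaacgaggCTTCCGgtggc
ZZZ3: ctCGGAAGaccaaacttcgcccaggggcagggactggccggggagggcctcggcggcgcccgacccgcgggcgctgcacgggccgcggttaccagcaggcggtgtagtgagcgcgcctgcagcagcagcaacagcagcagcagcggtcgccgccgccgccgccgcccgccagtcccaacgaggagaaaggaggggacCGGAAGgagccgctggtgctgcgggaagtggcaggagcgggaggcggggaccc
KAT2A: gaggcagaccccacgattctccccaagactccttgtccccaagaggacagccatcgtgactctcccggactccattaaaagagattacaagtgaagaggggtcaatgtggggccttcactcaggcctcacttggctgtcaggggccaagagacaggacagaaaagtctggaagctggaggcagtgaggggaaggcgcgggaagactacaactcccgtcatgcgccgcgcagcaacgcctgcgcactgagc

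The MBIP promoter held a TEAD core 190 bases before the start and the DR1 promoter held one 163 bases before it. Of 34943 RefSeq promoters read over the same 250 bases, 11.9% held this core on either strand. ETS-type cores stood 248 and 53 bases upstream of ZZZ3 and 124, 55 and 11 bases upstream of DR1, and 16.4% of all promoters held one. CACGTG, the E-box bound by TFE3, was in none of the promoters of ZZZ3, MBIP, KAT2A, TADA2A and DR1 and in 6.32% of all promoters. TGAGTCA or TGACTCA, the AP-1 site, was also in none of the 5 and in 4.22% of all. The motifs do not overlap, and a match is only a run of letters. The ZZZ3, TADA2A and DR1 promoters were rich in G and C, at 74.8%, 76.4% and 69.6%, against a median of 58% over all promoters. Further starts of ZZZ3 and TADA2A, 761 and 338 bp from the annotated gene starts, stood at 44% and 84%. The MBIP and KAT2A promoters stood at 53.2% and 58.8%. The promoter table holds for YEATS2 a start 12442 bp inside the annotated gene, which is not printed.

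The number of peaks in the 6 windows together was 20 for EV, 23 for TAZ4SA, 36 for YAP5SA, 32 for CAMTA1, 24 for TFE3 and 28 for each fusion. YEATS2 held 60 of the 191 peaks, KAT2A 40, ZZZ3 27, TADA2A 27, DR1 23 and MBIP 14. The windows differ in length, from 28000 bp for KAT2A to 138000 bp for ZZZ3, so that KAT2A was the most densely marked. Bases covered ranged from 10192 for TAZ4SA to 19027 for TAZ-CAMTA1, with 12508 for EV. Summed area ranged from 20132 for TAZ4SA to 61770 for YAP-TFE3, with 28882 for EV and 53070 for TAZ-CAMTA1.

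**Figure D1:**
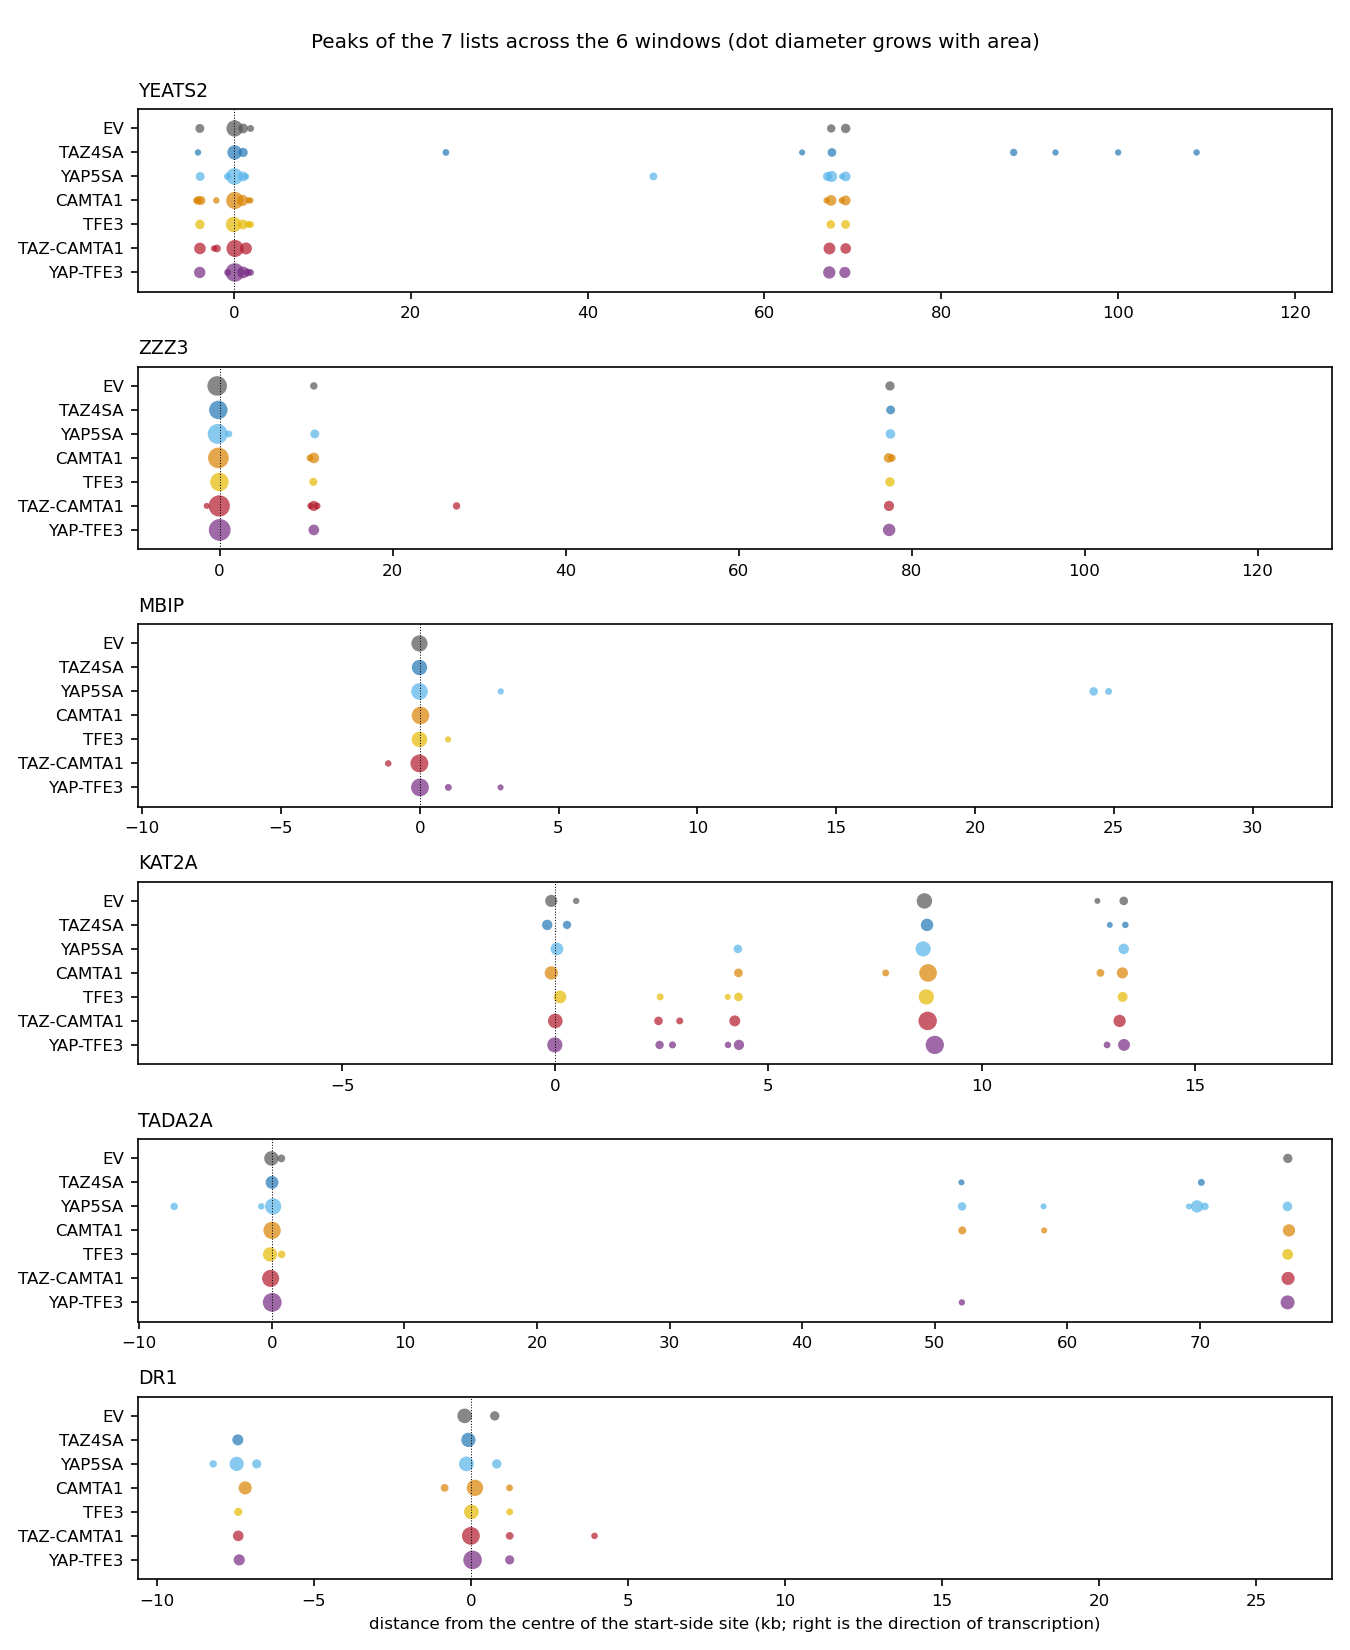
Every peak of the 7 lists in the 6 windows. The x axis is the distance in kb from the centre of the start-side site, with the direction of transcription to the right, each row is 1 list, and dots grow with peak area. A column of large dots at 0 is present in all 7 lists of all 6 genes, and KAT2A has a further column of large dots 8.76 kb to the right.

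In all 6 windows the side nearer to the start of the gene held a strong site found in all 7 lists, called the start-side site here. Without hg19 gene models it could not be assigned to a promoter, exon or intron, and it was placed by the strand of the gene only. The start-side sites made up most of the area, but each was picked as the strongest site of its side of the window. A high share is thus partly built in, and no share was taken for other genes. They carried from 69.2% of the summed window area (TAZ-CAMTA1) to 84.2% (TAZ4SA), with 81.1% for EV. The areas given next for single start-side sites are raw, and areas also differed between lists over the whole genome, as described after them.

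The ZZZ3 start-side site (chr1:78147263-78149950) was the strongest of the 50. Its area was 8692 in the EV list, 6889 in TAZ4SA, 9532 in YAP5SA, 11022 in CAMTA1, 6901 in TFE3, 12338 in TAZ-CAMTA1 and 13704 in YAP-TFE3. Both fusion lists were above all others, and TAZ4SA and TFE3 were almost level at the bottom. Its rank by area hardly moved, from the 97.6th percentile of the sites of the TFE3 list to the 98.3rd of the TAZ-CAMTA1 list.

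The YEATS2 start-side site (chr3:183415038-183416562) had an area of 4155 in EV, 2415 in TAZ4SA, 4528 in YAP5SA, 5177 in CAMTA1, 3123 in TFE3, 4992 in TAZ-CAMTA1 and 7041 in YAP-TFE3. The YAP-TFE3 list stood above the rest, and the TAZ-CAMTA1 list was below that of CAMTA1. The summit lay at different points of this broad site, 419 bp from its low edge in the YAP-TFE3 list, 549 and 589 bp in TAZ4SA and EV, 779 bp in YAP5SA and 1272 to 1276 bp in TFE3, TAZ-CAMTA1 and CAMTA1. The edges of the site were more alike, since the strongest peak of each list ended within positions 183416491 to 183416562.

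The MBIP start-side site (chr14:36789237-36790490) had an area of 3972 in EV, 3153 in TAZ4SA, 4483 in YAP5SA, 5634 in CAMTA1, 3315 in TFE3, 5967 in TAZ-CAMTA1 and 5953 in YAP-TFE3. The fusions were level with each other and close to CAMTA1. This site was the most uniform in shape. The summits of the 7 lists lay within 9 bp, and widths ranged from 1141 bp in EV to 1236 bp in YAP-TFE3.

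The DR1 start-side site (chr1:93810557-93812626) had an area of 2874 in EV, 2295 in TAZ4SA, 3010 in YAP5SA, 4269 in CAMTA1, 2547 in TFE3, 5968 in TAZ-CAMTA1 and 7092 in YAP-TFE3. Here the raw areas of the fusions were well above those of every other list. After the centring described below, the log2 ratio to EV was -0.21 for TAZ-CAMTA1 and 0.01 for YAP-TFE3. With centring on the strong sites, also described below, it was 0.37 and 0.48. The summits were spread over 34 bp.

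The TADA2A start-side site (chr17:35766100-35768011) had an area of 2576 in EV, 1470 in TAZ4SA, 4043 in YAP5SA, 5318 in CAMTA1, 2356 in TFE3, 4978 in TAZ-CAMTA1 and 7454 in YAP-TFE3. CAMTA1 was above TAZ-CAMTA1, as at YEATS2. The summits were spread over 50 bp. The peak itself was 888 bp wide in the TAZ4SA list and 1832 bp in the YAP-TFE3 list.

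The KAT2A start-side site (chr17:40272667-40273770) was the weakest of the 6 in every list. Its area was 1153 in EV, 721 in TAZ4SA, 1384 in YAP5SA, 1673 in CAMTA1, 1372 in TFE3, 2507 in TAZ-CAMTA1 and 2993 in YAP-TFE3. The fusions were again the highest. In the KAT2A window the strongest site lay elsewhere (chr17:40263524-40265390), 8.76 kb in the direction of transcription and towards DHX58, the next gene. That site had an area of 3247 in EV, 1251 in TAZ4SA, 3014 in YAP5SA, 5619 in CAMTA1, 3068 in TFE3, 6864 in TAZ-CAMTA1 and 6526 in YAP-TFE3. The TAZ4SA list was far below the others there, and whether the site belongs to KAT2A or to DHX58 was not resolved.

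**Figure D2:**
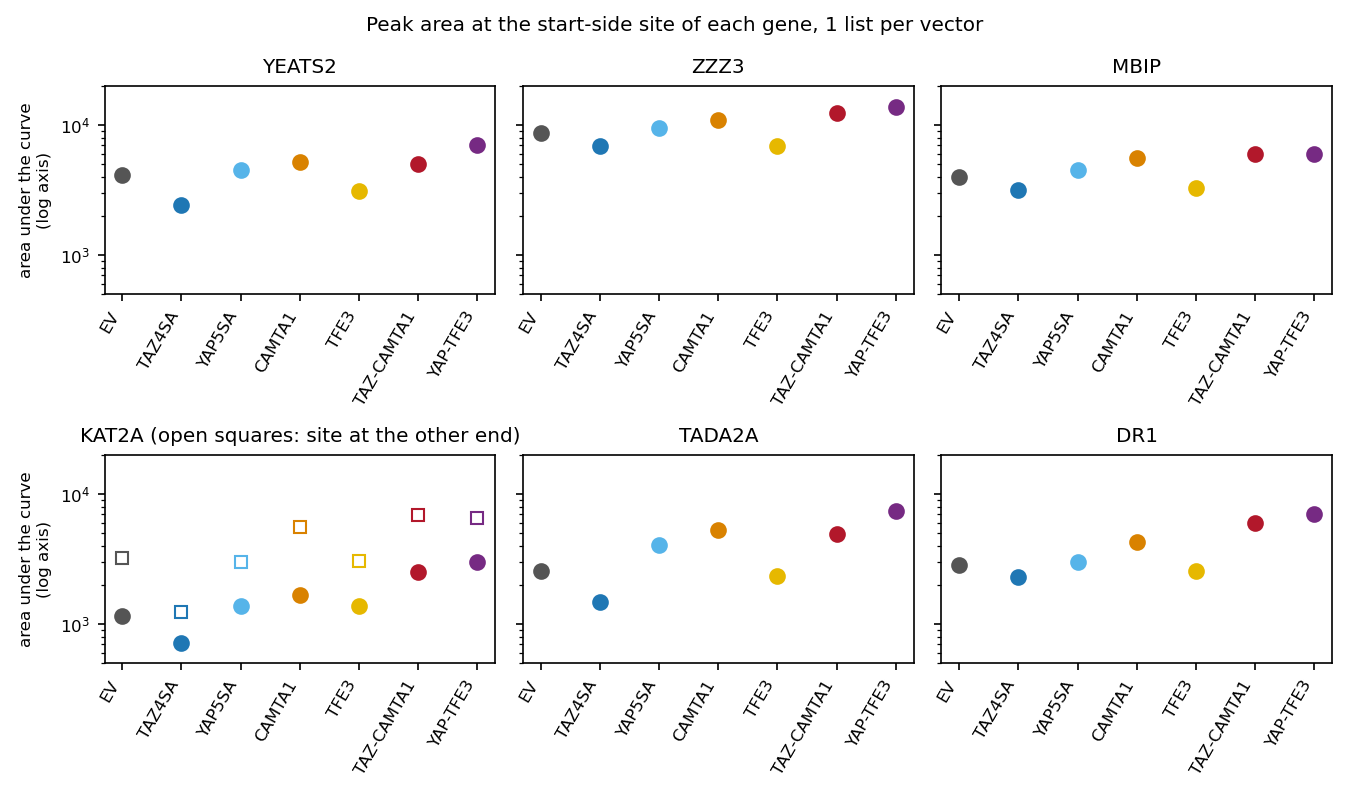
Area of the start-side site of each gene in the 7 lists, on a log axis, with 1 point per list and no error bars because each vector has 1 list. Open squares are the other strong site of the KAT2A window. TAZ4SA is the lowest point at all 6 start-side sites, and YAP-TFE3 is the highest at all but MBIP, where TAZ-CAMTA1 reaches 5967 and YAP-TFE3 5953. The areas are raw, and this order does not hold at all sites after the scaling by list-wide ratios described below.

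Area per base allowed the genes to be set beside each other. In the EV list the order was ZZZ3 at 4.16 per base, MBIP at 3.48, YEATS2 at 3.40, TADA2A at 2.06, DR1 at 1.68 and KAT2A at 1.23. ZZZ3, MBIP and YEATS2 took the top 3 places in every list but TAZ4SA, where KAT2A, at 1.96 per base over 2 peaks that together covered 368 bp, came after ZZZ3 and MBIP. In the YAP-TFE3 list YEATS2 (5.15) and ZZZ3 (5.14) were level, with MBIP at 4.82. Which neighbours in this order differ beyond replicate spread could not be said.

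Areas differed between lists over the whole genome, so each ratio of a list to EV was divided by the median ratio of the 60372 sites held by all 7 lists. That median was 0.639 for TAZ4SA, 1.32 for YAP5SA, 2.07 for CAMTA1, 1.07 for TFE3, 2.40 for TAZ-CAMTA1 and 2.45 for YAP-TFE3. Values after this step are called centred log2 ratios. Stronger sites had smaller ratios in every list but TAZ4SA. Over the 6038 sites in the top 10% by median area the median ratio was 1.61 for TAZ-CAMTA1 and 1.77 for YAP-TFE3. Centring on these strong sites moves a log2 ratio by 0.57 for TAZ-CAMTA1 and by 0.47 for YAP-TFE3 and for CAMTA1. The lowest median area among the strong sites was 6923. Of the start-side sites only that of ZZZ3, at 9532, reached it. The others ranged from 1384 at KAT2A to 4528 at YEATS2. For these and for weaker sites, centring on the strong sites is an alternative scaling and is not matched to their strength.

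At the start-side sites the centred log2 ratio of TAZ-CAMTA1 to EV was below 0 for 6 of 6 genes, from -0.995 at YEATS2 to -0.14 at KAT2A, but with centring on the strong sites it was above 0 for 3 and below for 3, from -0.42 to 0.43. That of YAP-TFE3 was above 0 for 3 and below for 3 with either centring, from -0.71 at MBIP to 0.24 at TADA2A with the first and from -0.24 to 0.71 with the second. Neither fusion gave the 6 genes a common direction that held under both scalings. The raw areas of both fusions were above EV at all 6 start-side sites. TAZ4SA had a lower raw area than YAP-TFE3 at all 6, but this order rested on scale. After the first centring the log2 ratio of TAZ4SA was above that of YAP-TFE3 at ZZZ3 (0.31 and -0.63) and MBIP (0.31 and -0.71). It was also above at DR1 (0.32 and 0.01) and YEATS2 (-0.14 and -0.53), and below at KAT2A and TADA2A. With centring on the strong sites it was above at ZZZ3 and MBIP only.

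Of the other lists, CAMTA1 and YAP5SA were below 0 at most start-side sites with either centring, though often only slightly with the strong sites. TFE3 was below 0 at most of them with the first centring only, and TAZ4SA with neither. How many sites of like strength fall below 0 was not counted. The ratio of CAMTA1 to EV was below 0 at 6 of 6 start-side sites, down to -0.73 at YEATS2, and at 5 of 6 with centring on the strong sites. Of these 5, DR1 (-0.009), KAT2A (-0.04) and MBIP (-0.08) were close to 0. That of TFE3 was below 0 at 5 of 6, and at 2 of 6 with the strong sites. YAP5SA was below 0 at 5 of 6, or 4 of 6 with the strong sites, and TAZ4SA at 3 of 6 with either. Those 4 values of YAP5SA ran from -0.16 at DR1 to -0.05 at MBIP.

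Of the 50 sites, 12 (24%) were held by all 7 lists, beside 16.2% of all sites. They were the 6 start-side sites, the strong downstream site of KAT2A and 5 weaker ones. A centred change of 2-fold or more against EV was found at few of them. For TAZ-CAMTA1, 2 of the 12 were higher, beside 20.8% of all such sites past that fold in either direction. For YAP-TFE3, 1 was higher, beside 25.1%. For YAP5SA, 1 was higher, beside 32.7%, and for TAZ4SA, 2 were lower, beside 39.5%. For CAMTA1 none was past it, beside 25.1%, and for TFE3 none, beside 21.6%. With centring on the strong sites these counts became 3 for TAZ-CAMTA1 (beside 33.6%), 3 for YAP-TFE3 (33.2%), 2 for YAP5SA (33.9%), 2 for TAZ4SA (40.4%), 2 for CAMTA1 (33.0%) and 1 for TFE3 (27.4%). With 12 sites, counts this small do not set the complex genes apart from other sites.

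**Figure D3:**
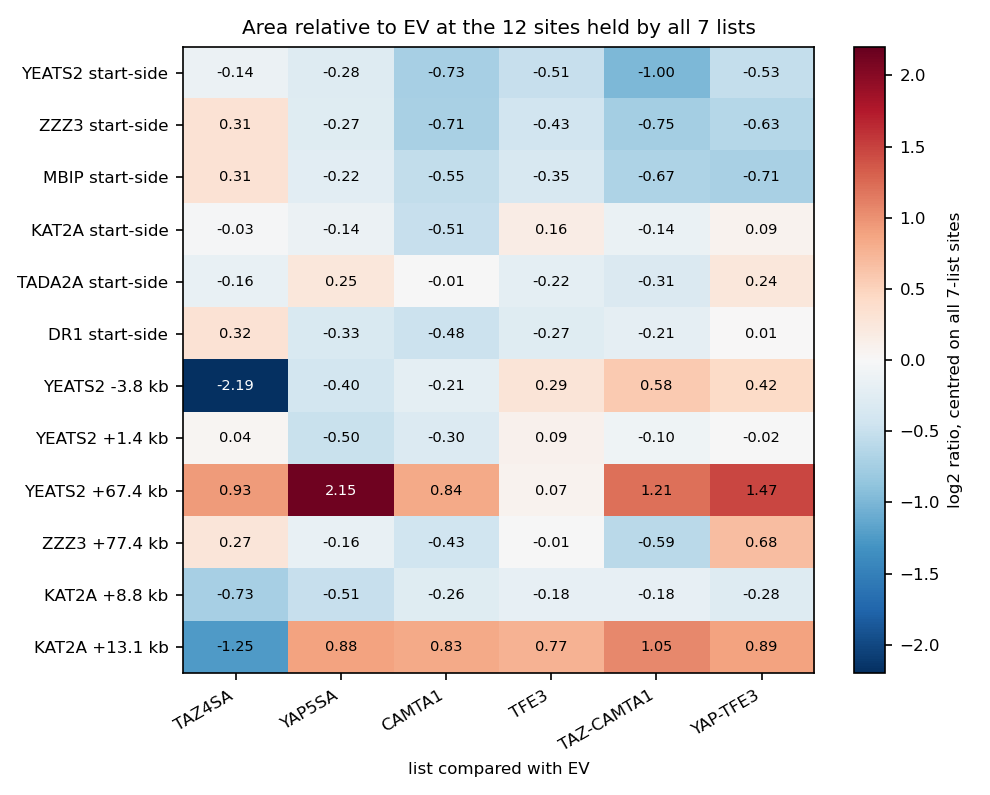
Centred log2 ratio of area to EV (colour and number) at the 12 sites of the 6 windows held by all 7 lists, with the start-side sites in the upper 6 rows and signed distances in kb from them below. The values past 1 in size lie in the rows YEATS2 -3.8 kb, YEATS2 +67.4 kb and KAT2A +13.1 kb, and no start-side value passes it, since that of YEATS2 for TAZ-CAMTA1, at -0.995, falls just short.

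Of the 12 sites, the one with the highest ratio to EV in both fusion lists lay 67.4 kb from the start-side site of YEATS2, in the direction of transcription (chr3:183482773-183483545). Its area was 180 in EV, 220 in TAZ4SA, 1051 in YAP5SA, 669 in CAMTA1, 202 in TFE3, 1001 in TAZ-CAMTA1 and 1217 in YAP-TFE3. By raw area EV, TAZ4SA and TFE3 were low and the other 4 lists high, but after centring TAZ4SA (0.93) was above CAMTA1 (0.84), and with centring on the strong sites it was below (0.75 and 1.31). The centred log2 ratio to EV was 2.15 for YAP5SA, 1.47 for YAP-TFE3, 1.21 for TAZ-CAMTA1 and 0.07 for TFE3, and with centring on the strong sites 2.32, 1.93, 1.79 and 0.44. Of all sites held by 7 lists, 90.6% had a lower ratio for YAP5SA, 88.2% for YAP-TFE3 and 87.4% for TAZ-CAMTA1, so ratios of this size were not rare over the genome. The summit −log10 p was 5.20 in EV, 8.80 in YAP5SA, 7.60 in TAZ-CAMTA1 and 8.72 in YAP-TFE3. The YEATS2 window extends past this site, but whether it is intronic could not be read from hg19 models here.

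The KAT2A window held another such site 13.1 kb beyond the start side (chr17:40259587-40260561). Its area was 238 in EV, 63.8 in TAZ4SA, 579 in YAP5SA, 879 in CAMTA1, 434 in TFE3, 1181 in TAZ-CAMTA1 and 1077 in YAP-TFE3. TAZ4SA was the lowest and the fusions the highest. This site lay farther towards DHX58 than the strong site at 8.76 kb, and its gene was not resolved either. The centred log2 ratio to EV was -1.25 for TAZ4SA and 1.05 for TAZ-CAMTA1, and it was between 0.77 and 0.89 for YAP5SA, CAMTA1, TFE3 and YAP-TFE3. With centring on the strong sites, TAZ4SA was at -1.43 and the other 5 were all past 2-fold, at 1.06 for YAP5SA, 1.14 for TFE3, 1.31 for CAMTA1, 1.35 for YAP-TFE3 and 1.63 for TAZ-CAMTA1.

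A site 3.85 kb before the YEATS2 start-side site (chr3:183411647-183412257) had an area of 254 in EV, 35.7 in TAZ4SA, 254 in YAP5SA, 456 in CAMTA1, 331 in TFE3, 909 in TAZ-CAMTA1 and 833 in YAP-TFE3. The TAZ4SA value rested on a peak of 100 bp close to the lowest area the lists hold, and its centred log2 ratio to EV was -2.19. The site 1.39 kb past the YEATS2 start side (chr3:183416641-183417746) changed less, with areas of 471 in EV, 308 in TAZ4SA, 440 in YAP5SA, 792 in CAMTA1, 534 in TFE3, 1056 in TAZ-CAMTA1 and 1138 in YAP-TFE3. At ZZZ3, the site 77.4 kb past the start side (chr1:78070808-78071611) had areas of 315 in EV, 243 in TAZ4SA, 372 in YAP5SA, 484 in CAMTA1, 334 in TFE3, 503 in TAZ-CAMTA1 and 1239 in YAP-TFE3. Here YAP-TFE3 alone was high.

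Each fusion was also set against the proteins it is built from. Against TAZ4SA, TAZ-CAMTA1 was 2-fold or more higher after centring at 2 of the 12 sites. They were the YEATS2 site at 3.85 kb (log2 ratio 2.75) and the site at 13.1 kb in the KAT2A window (2.29). TAZ-CAMTA1 was lower at the start-side sites of ZZZ3 (-1.08) and MBIP (-1.002), which before centring were higher, at 0.84 and 0.92. In all, 45.0% of sites held by 7 lists passed the fold in this comparison. With centring on the strong sites 4 of the 12 passed, all of them higher and none a start-side site, beside 51.1%. Against CAMTA1, none of the 12 passed, beside 13.6%, or 13.7% with centring on the strong sites.

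YAP-TFE3 passed the fold against YAP5SA at none of the 12 sites, beside 27.0%, and with centring on the strong sites at 2, beside 28.4%. Against TFE3 it passed at 1, the YEATS2 site at 67.4 kb (1.40), beside 12.7%, or 13.4% with centring on the strong sites, where 1 also passed. Between the fusions, 1 site passed, the ZZZ3 site at 77.4 kb, where YAP-TFE3 was higher by a log2 ratio of 1.21, beside 11.8%, and 1 passed with centring on the strong sites, beside 11.9%. At the start-side sites the centred log2 ratio of YAP-TFE3 to TAZ-CAMTA1 ran from -0.09 at MBIP to 0.49 at TADA2A. It was above 0 at 5 of these sites and below at 1, with either centring. Of all sites held by 7 lists, 85.7% had a lower ratio than TADA2A, 82.7% than YEATS2 (0.41) and 39.6% than MBIP.

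Of the other 38 sites, 23 were in 1 list and 15 in 2 to 6. Single-list sites made up 46% of the 50, beside 42.3% of all sites, and were weak, with a median area of 59.4 and a maximum of 210. YAP5SA alone held 7 (14%, beside 10.5% of all sites), TAZ-CAMTA1 alone 7 (14%, beside 9.35%) and TAZ4SA alone 6 (12%, beside 4.92%). CAMTA1 alone held 2 (4%, beside 5.65%) and YAP-TFE3 alone 1 (2%, beside 8.07%). EV and TFE3 alone held 0, beside 3.33% and 0.409%. The 6 of TAZ4SA were all in the YEATS2 window, from 24.0 to 109 kb past the start side, with areas of 26.8 to 88.4. The strongest of all, 24.3 kb past the MBIP start side (chr14:36765492-36765680), was a YAP5SA peak with an area of 210.

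Sites held by both fusions but not by EV, TAZ4SA or YAP5SA numbered 2 of 50, or 4%, beside 7.01% of all sites. The first lay 2.44 kb past the KAT2A start side (chr17:40270669-40270892), with an area of 211 in TAZ-CAMTA1, 186 in YAP-TFE3 and 62.0 in TFE3 and no peak in the CAMTA1 list. The other lay 1.23 kb past the DR1 start side (chr1:93812769-93812873), with an area of 116 in TAZ-CAMTA1, 290 in YAP-TFE3, 53.9 in CAMTA1 and 57.9 in TFE3. Neither was in the fusion lists alone, since at least 1 of the C-terminal partners held each. No site was in the EV list and absent from both fusion lists, beside 4.79% of all sites.

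Some sites that fall outside these classes were chosen after their values were seen. A site 7.16 kb before the DR1 start side (chr1:93803847-93805021) was in every list but EV. Its area was 711 in TAZ4SA, 2563 in YAP5SA, 1593 in CAMTA1, 159 in TFE3, 595 in TAZ-CAMTA1 and 765 in YAP-TFE3, and the nearest EV peak was 5680 bp away. YAP5SA was the highest and TFE3 the lowest, so the order differed from that of the DR1 start-side site, where the fusions led. Sites in all lists but EV made up 1.22% of all sites.

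A site 69.8 kb past the TADA2A start side (chr17:35836465-35837214) was in the lists of TAZ4SA, with an area of 61.9, and YAP5SA, with 1215, and in no other. The nearest peaks of the 5 lists without it were 6041 to 6257 bp away. YAP5SA also held the only peaks on its sides, 25.6 and 112 in area. This YAP5SA peak was the largest area at any site held by fewer than 6 lists.

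Further on, 76.6 kb past the TADA2A start side (chr17:35843256-35844075), a site had areas of 320 in EV, 362 in YAP5SA, 1179 in CAMTA1, 653 in TFE3, 1585 in TAZ-CAMTA1 and 2121 in YAP-TFE3, with no TAZ4SA peak. Here CAMTA1 and the fusions were high and YAP5SA was close to EV, the reverse of the preceding site. It lies near the window's end, towards DUSP14, and its gene was not resolved.

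Also absent from TAZ4SA alone were a site 10.9 kb past the ZZZ3 start side (chr1:78137497-78137931) and a site 69.1 kb past that of YEATS2 (chr3:183484695-183485116). The ZZZ3 site had areas of 96.5 in EV, 267 in YAP5SA, 596 in CAMTA1, 154 in TFE3, 472 in TAZ-CAMTA1 and 622 in YAP-TFE3. The YEATS2 site had 339 in EV, 415 in YAP5SA, 437 in CAMTA1, 236 in TFE3, 605 in TAZ-CAMTA1 and 761 in YAP-TFE3. Sites in all lists but TAZ4SA were 3 of 50, or 6%, and 4.25% of all sites. A site 4.21 kb past the KAT2A start side (chr17:40268800-40269219) was in neither EV nor TAZ4SA and had 209 in YAP5SA, 229 in CAMTA1, 245 in TFE3, 703 in TAZ-CAMTA1 and 565 in YAP-TFE3.

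**Figure D4:**
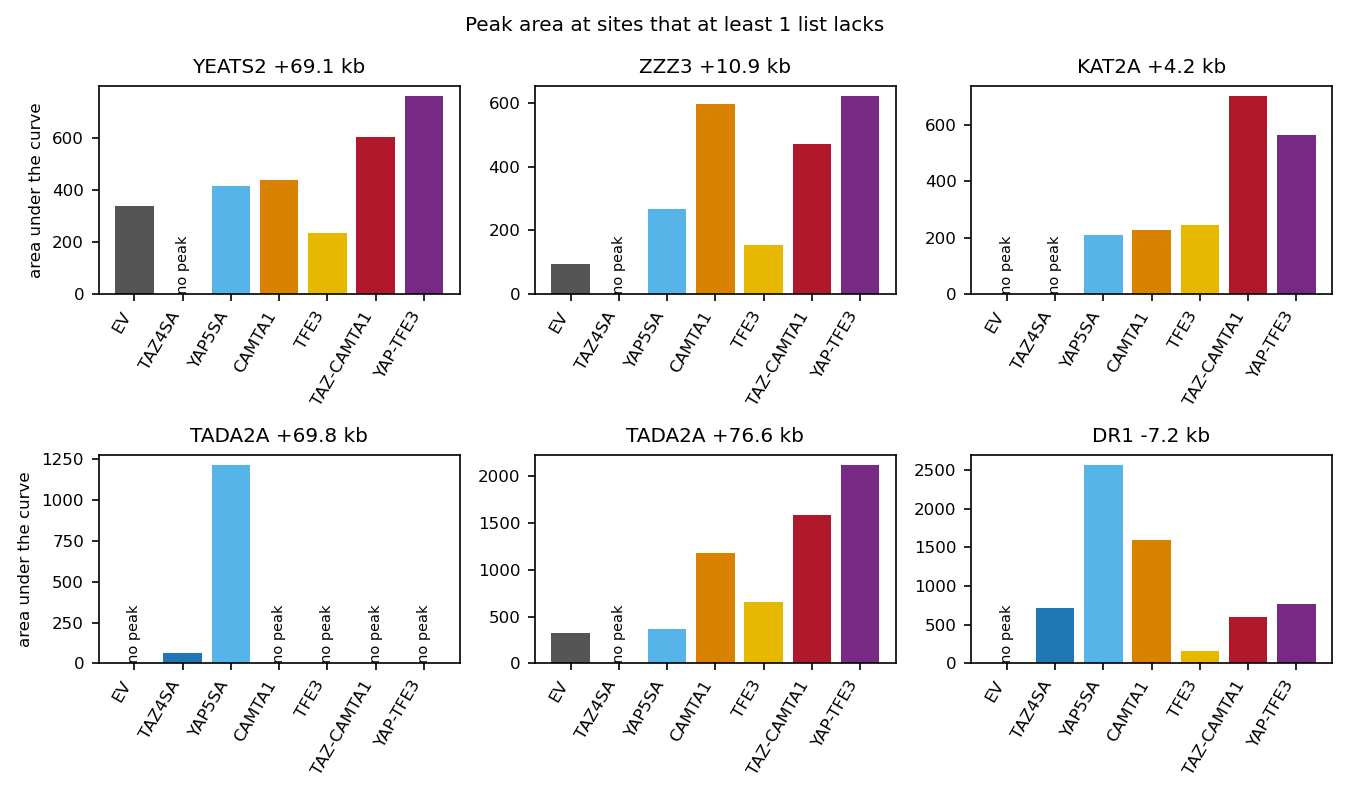
Area at 6 sites that at least 1 list lacks, as bars from 0 for each list, with the distance from the start-side site in the panel title. The TADA2A +69.8 kb panel has bars for TAZ4SA and YAP5SA only, the DR1 -7.2 kb panel peaks in YAP5SA at 2563, and the other panels are highest in a fusion list.

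The share of peaks in the windows that overlapped no EV peak could not be told apart from that of the whole list for any vector. It was 13 of 28 for TAZ-CAMTA1, or 46.4% (Wilson 95% interval 29.5 to 64.2), beside 51.5% over the list. For YAP-TFE3 it was 12 of 28, or 42.9% (26.5 to 60.9), beside 50.7%. For CAMTA1 it was 12 of 32, or 37.5% (22.9 to 54.7), beside 46.8%. All these intervals, which cover counting error only, hold the value of the whole list.

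For YAP5SA the share was 20 of 36, or 55.6% (39.6 to 70.5), beside 47.9%. For TAZ4SA it was 10 of 23, or 43.5% (25.6 to 63.2), beside 33.9%, and for TFE3 7 of 24, or 29.2% (14.9 to 49.2), beside 27.6%. At this number of peaks no departure of the complex genes from the whole list was detectable. When the same number of peaks was kept per list, ranked by −log10 p, the share in the windows was 28.6% (13.8 to 49.96) for TAZ-CAMTA1, beside 36.7% over the shortened list, and 25% (11.2 to 46.9) for YAP-TFE3, beside 37.1%. It was 18.2% (7.31 to 38.5) for CAMTA1, beside 34.9%, and 44.8% (28.4 to 62.5) for YAP5SA, beside 36.7%. TAZ4SA stayed at 43.5%, beside 35.8%, and TFE3 was at 26.1% (12.5 to 46.5), beside 29.8%. Both fusions were then below TAZ4SA, and their intervals overlapped that of TAZ4SA and held the value of the shortened list.

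**Figure D5:**
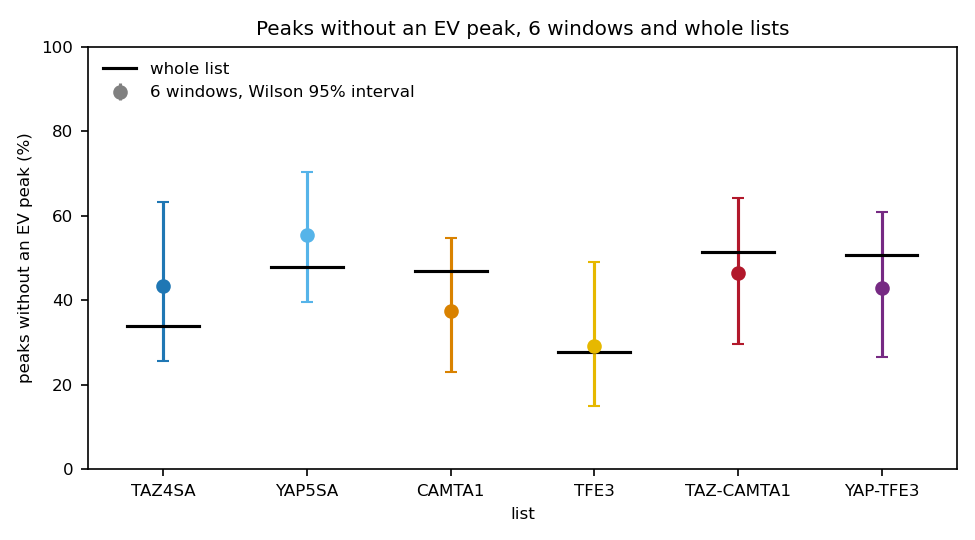
Percent of peaks without an EV peak in the 6 windows (points with Wilson 95% intervals for counting error) and in the whole list (black lines) for the 6 lists other than EV. Each black line falls inside the interval of its list.

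The patterns of the start-side sites over the 7 lists were compared by Pearson's r of the centred log2 ratio, as a description of 15 gene pairs that share the same lists, with EV at 0 for every gene. The highest value was that of ZZZ3 and MBIP, with r = 0.98, and 0.81 with centring on the strong sites. Some pairs went the other way. With centring on the strong sites r was -0.94 for MBIP and TADA2A and -0.88 for ZZZ3 and TADA2A. With the first centring these were -0.11 and -0.02. YEATS2 had r = 0.88 with ZZZ3 and 0.84 with MBIP, but 0.10 and -0.21 with centring on the strong sites, so its likeness to them rested on the centring. All pairs share EV and the centring of each list, and r was not set against other sites of like strength.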

How the data were processed

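The data were 7 peak lists, 1 per vector, from 20 ATAC-seq libraries of SW872 cells. Per the study's methods, the authors trimmed reads with NGmerge, aligned them to hg19 with BWA-MEM and called peaks with Genrich in ATAC-seq mode, with removal of duplicates, blacklisted regions, the mitochondrial genome and some contigs. Those methods state calling on each replicate, whereas each list holds a single set, and how libraries were combined is not given in the sources used here. The submitters' processing notes name Bowtie 0.12.2 and mm8, a mouse build, against the human chromosome names and hg19 of the lists and methods. The signal deposited for a peak is its area under the curve, and the authors' summit −log10 p was also used. The deposited peak offset gave the summit position. Positions count from 1.

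Peaks in the windows were taken from each list, and overlapping peaks of all lists (1 bp or more) were merged into sites, whose areas were summed per list. The leading site of a window had the largest median area. Named sites were the leading sites, the 2 largest other sites per gene held by all 7 lists, those held by both fusions and not by EV, TAZ4SA or YAP5SA, those held by EV and neither fusion, and those held by 7 lists past 2-fold against EV. The start-side site, the strongest between the window's midpoint and its end at the gene's start, and any other site were chosen after seeing the data. Members and lists were chosen with earlier results of these data known. The genome at hand was GRCh38, so hg19 sites were not placed in exons, introns or promoters and cell type markers were not checked. Strands, neighbours and annotated gene starts came from GENCODE, and promoter sequences from RefSeq. Peak merging and centring were tested on simulated data. Python 3.11.15, numpy and scipy were used. Alternatives were 152702 peaks from each list (the shortest list's number), summits of −log10 p 4 or more, windows narrowed by 5 kb, 250 bp to each side of the summit, an overlap of 50%, other centring, strongest peak, width, summit −log10 p, and 1.5-fold.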

Additional observations from a re-analysis of the deposited data

How the results depend on the processing

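With the same number of peaks kept from each list, by −log10 p or by area, the share of window peaks without an EV peak went from 46.4% to 28.6% for TAZ-CAMTA1 and from 42.9% to 25% for YAP-TFE3 under both rankings. These settings remove the weakest peaks of the longer lists. With 250 bp to each side of the summit, 1 site instead of 2 was held by both fusions and not by EV, TAZ4SA or YAP5SA, and 11 instead of 12 were held by all 7 lists. At 1.5-fold, 6 of the 12 sites held by all lists passed for TAZ-CAMTA1 and 5 for YAP-TFE3, against 2 and 1 at 2-fold. With centring on the strong sites, 3 passed for YAP-TFE3, and the other lists are given with their counts. Without centring, the log2 ratio of TAZ-CAMTA1 to TAZ4SA turned from -1.08 to 0.84 at the ZZZ3 start-side site and from -1.002 to 0.92 at that of MBIP. The other 22 summary values stayed within 1.5 times the count or inside the Wilson interval of the share. Of the log2 ratios at single sites, 318 stayed within 1.5-fold of the reported value, 67 moved further and 2 reversed. Of the remaining counts, 40 stayed and 11 moved, and of the remaining shares, 20 stayed and 4 moved.

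No paired analysis was possible because each vector has 1 value and its libraries have none, so that leaving out a library or blocking on its number could not be run. Depth per library is unknown, and how far depth, the caller or the combination of libraries sets the areas was not tested.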
